A study of Mus musculus with 23 samples.

Results

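The genes described here are 6 dual specificity phosphatases (Dusp1, Dusp2, Dusp4, Dusp5, Dusp6 and Dusp10) and 2 Sprouty genes (Spry1 and Spry2), taken by name from the 18194 genes measured. All probe sets annotated to one of these genes alone were used, which gave 10 of the 45101 on the array: 2 each for Dusp10 and Spry2 and 1 for each other gene. RNA came from CD4+ T cells of mice, gated on CD25 (Il2ra), a subunit of the receptor for interleukin-2, and on CD49f (Itga6), an integrin subunit that binds laminin. Of the 23 arrays, 4 measured the CD25+CD49f+ gate, 5 the CD25+CD49f- gate, 7 the CD25-CD49f+ gate and 7 the CD25-CD49f- gate. All groups were labelled as T cells of female mice. No treatment or genetic change is given in the labels, and strain, age, tissue of origin and any pooling of mice are not given in the sources used here. The labels call the arrays biological replicates without saying which mouse each came from, so a p-value reflects only how these arrays spread. Each array reports a mixture of the sorted cells, in which fewer cells of a type and less RNA per cell cannot be told apart.

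Mitogen-activated protein kinases (ERK, JNK and p38) carry signals from the T cell receptor and growth factor receptors to the nucleus. MAP kinase phosphatases, a group of the dual specificity phosphatases, switch these kinases off. They remove phosphate from both a threonine and a tyrosine of the activation loop, and many are themselves induced by the kinases they restrain. Sprouty proteins act higher up, at the membrane, where they restrain the activation of Ras and ERK. In T cells, transcripts of both families are known as feedback brakes that rise after activation.

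The promoter sequences of Dusp1 and Dusp5 are shown because these genes moved together with early response genes in the comparisons below. Their promoters also held full matches to known response motifs. Dusp2 was called in the same comparisons, but its promoter held only a match to a short core motif and is not printed. The printed sequences are from RefSeq, mouse build GRCm38.p6, from 250 bases before to 50 bases after the start of the gene, written 5′ to 3′. Capitals mark matches on either strand to the cyclic AMP response element TGACGTCA or its shorter core TGACG, or to the CArG box, the binding motif of serum response factor.
Dusp1 (chr17:26508423-26508722, minus strand): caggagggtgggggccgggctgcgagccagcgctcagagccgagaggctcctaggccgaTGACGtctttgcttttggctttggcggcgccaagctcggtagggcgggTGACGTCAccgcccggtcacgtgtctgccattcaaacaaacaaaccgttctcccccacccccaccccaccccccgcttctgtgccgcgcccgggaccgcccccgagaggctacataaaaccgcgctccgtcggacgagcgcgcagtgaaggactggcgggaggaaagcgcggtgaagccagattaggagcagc
Dusp5 (chr19:53528895-53529194, plus strand): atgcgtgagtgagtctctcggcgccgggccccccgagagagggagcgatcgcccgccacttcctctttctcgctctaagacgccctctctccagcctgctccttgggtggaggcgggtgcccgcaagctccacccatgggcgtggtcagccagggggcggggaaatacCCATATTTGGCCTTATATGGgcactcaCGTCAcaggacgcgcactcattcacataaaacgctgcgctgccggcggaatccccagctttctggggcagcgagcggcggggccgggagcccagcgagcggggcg

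The Dusp1 window held 1 full TGACGTCA match, beginning at position -143, and a further TGACG match beginning at position -191, where 0 is the first base of the gene. Of 32851 promoter windows of the same length, 1.79% held TGACGTCA and 20.8% held TGACG, so the core alone is common, and every TGACGTCA match also counts as a TGACG match. The Dusp5 window held 2 adjacent CArG boxes, beginning at positions -82 and -72, and 1 TGACG match, and 1.63% of all windows held a CArG box. Of the 7 genes with a RefSeq promoter window, Dusp2 had 1 TGACG match and Dusp6, Dusp10, Spry1 and Spry2 had no match to these motifs, to the AP-1 motif TGANTCA or to the ETS motif CCGGAAGT. The motifs were chosen after the sequences had been read, and a match describes letters and not occupancy.

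The gates were checked on transcripts first. Il2ra, which codes CD25, averaged 9.60 ± 0.18 in CD25+CD49f+ cells, 9.69 ± 0.16 in CD25+CD49f- cells, 6.84 ± 0.24 in CD25-CD49f+ cells, against 5.42 ± 0.20 in CD25-CD49f- cells (log2 level, SD, n = 4, 5, 7 and 7). Itga6, which codes CD49f, did not follow its gate. Its mean was 9.81 ± 0.03 in the CD25+CD49f+ gate and 9.64 ± 0.23 in the CD25+CD49f- gate (limma adjusted p = 0.88), and it was lower in CD25-CD49f+ cells, at 9.36 ± 0.08, than in the CD25-CD49f- gate, at 9.79 ± 0.16 (limma adjusted p = 0.000321). The CD49f gates are therefore named as labelled, from the sorted surface protein, and every CD49f direction below rests on those labels. The mean log2 level of 5 markers of regulatory T cells (Treg cells) ran from 10.53 to 10.78 on CD25+CD49f+ arrays, 10.26 to 10.76 on CD25+CD49f- arrays, 9.0 to 9.43 on CD25-CD49f+ arrays and 6.69 to 7.20 on CD25-CD49f- arrays. These markers were Foxp3, Ctla4, Ikzf2, Tnfrsf18 and Il2ra, so the transcript of the CD25 gate itself is part of this mean. The 6 measured markers of CD4 T cells averaged 10.60 to 11.32 on all arrays. Although all mice were labelled female, 10 arrays showed Y-linked transcripts without Xist, 12 showed Xist alone and 1, CD25+CD49f- replicate 5, showed both, with both kinds in every group. An absent Xist or Y-linked transcript read up to 6.50, so log2 levels under about that value may be background. In addition 4 arrays correlated less with their own group than the rest (mean r of 0.967 to 0.981, against 0.985 or more): CD25+CD49f- replicate 5, CD25-CD49f+ replicate 1, and CD25-CD49f- replicates 1 and 7.

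The plot of levels by gate gives the 8 genes in all groups, each by its probe set with the higher mean, on which all counts of the 8 genes rest. Dusp1, Dusp2 and Dusp5 stood low in CD25-CD49f- cells, and among the other 3 gates their ranges overlapped and no difference was called. Dusp4 had 3 levels, with both CD25+ gates above CD25-CD49f+ cells and these above CD25-CD49f- cells. Spry1 also had 3 levels and was highest in CD25+CD49f+ cells. Dusp10 ran the other way, and Dusp6 and the brighter Spry2 probe set passed no test between gates.

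**Figure D1:**
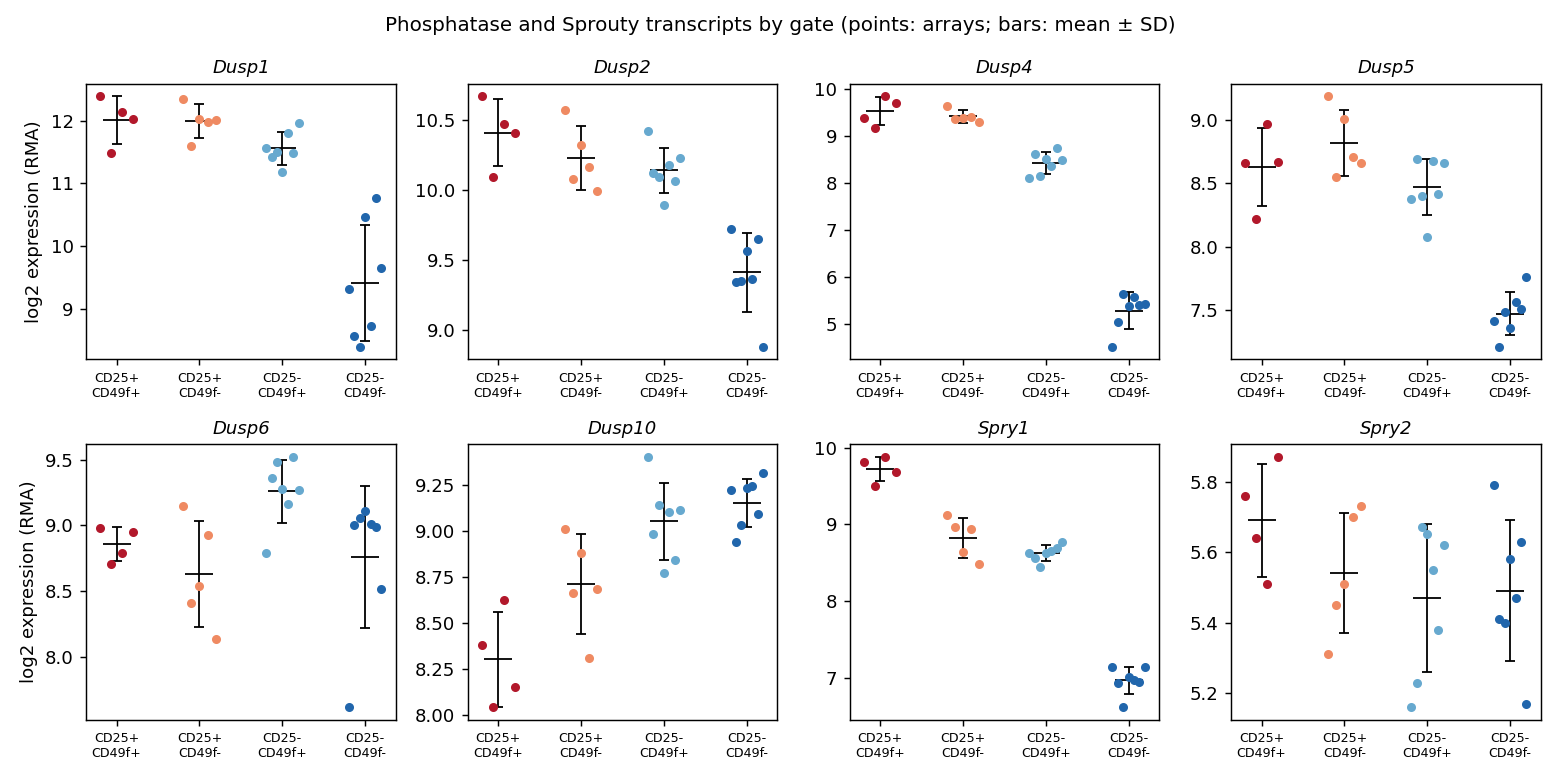
Log2 expression (RMA, vertical axes, a separate scale for each gene) of the 8 genes in CD25+CD49f+, CD25+CD49f-, CD25-CD49f+ and CD25-CD49f- cells. Points are arrays, and bars give the mean ± SD. Dusp4 lies between 4.53 and 5.65 in CD25-CD49f- cells and at 8.10 or more on all other arrays.

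Dusp4, a nuclear phosphatase of ERK and JNK, had the largest differences of the 8. Its log2 levels were 9.38, 9.17, 9.84 and 9.69 in the CD25+CD49f+ gate, 9.63, 9.36, 9.37, 9.40 and 9.30 in the CD25+CD49f- gate, 8.10 to 8.74 (median 8.49) in CD25-CD49f+ cells and 4.53 to 5.65 (median 5.40) in CD25-CD49f- cells. The CD25- gates overlapped neither each other nor any CD25+ gate, and the CD25+ gates overlapped each other. Between the CD25-CD49f+ and CD25-CD49f- gates the log2 difference was 3.13 ± 0.14 (SE, limma adjusted p = 5e-14). It ranked 6 by p among the 18194 genes in that comparison. Between the CD25+CD49f- and CD25-CD49f- gates it was 4.12 ± 0.16 (limma adjusted p = 2.46e-16). The size of both is that of the signals, since the level in CD25-CD49f- cells lies in the range of absent transcripts. Away from that range, Dusp4 was higher in the CD25+CD49f+ gate than in the CD25-CD49f+ gate by 1.10 ± 0.17 (limma adjusted p = 6.55e-05), and in the CD25+CD49f- gate than in the CD25-CD49f+ gate by 0.99 ± 0.16 (limma adjusted p = 6.43e-05). Among arrays without Y-linked transcripts the difference between the CD25+CD49f+ and CD25-CD49f+ gates was 0.94 and did not pass (limma adjusted p = 0.0841), and on Y-linked arrays without Xist it was 1.23 (limma adjusted p = 0.00382). CD49f made no called difference among CD25+ cells (0.11, 95% interval -0.26 to 0.48).

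Spry1, an inhibitor of receptor signalling to Ras that is also known to restrain T cell receptor signals, separated the CD25+ gates, and was alone in this among the 8 probe sets with the higher mean. Its log2 levels were 9.81, 9.50, 9.88 and 9.68 in CD25+CD49f+ cells, against 9.12, 8.97, 8.64, 8.94 and 8.48 in CD25+CD49f- cells. It read 8.44 to 8.77 (median 8.63) in CD25-CD49f+ cells and 6.62 to 7.14 (median 6.97) in CD25-CD49f- cells. All 4 CD25+CD49f+ arrays lay above every other array, and all 7 CD25-CD49f- arrays lay below every other array. The CD25+CD49f+ level exceeded that of CD25+CD49f- cells by 0.89 ± 0.12 (1.85-fold, limma adjusted p = 2.61e-05). Among arrays without Y-linked transcripts, with 2 arrays in each CD25+ gate, that difference was 0.61 (limma adjusted p = 0.284). On Y-linked arrays without Xist, also 2 in each, it was 0.99 (limma adjusted p = 0.0136). The middle neighbours, CD25+CD49f- and CD25-CD49f+ cells, overlapped and differed by 0.20 (95% interval -0.02 to 0.42, limma adjusted p = 0.342). Without the 4 arrays that stood apart the value was 0.29 and passed (limma adjusted p = 0.0479).

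Dusp1, a nuclear phosphatase of p38, JNK and ERK and an immediate early gene, varied most within 1 gate. Its log2 levels were 12.39, 11.49, 12.13 and 12.03 in the CD25+CD49f+ gate, 12.35, 11.60, 12.02, 11.98 and 12.01 in the CD25+CD49f- gate, 11.18 to 11.97 (median 11.50) in CD25-CD49f+ cells and 8.40 to 10.76 (median 9.31) in CD25-CD49f- cells. The first 3 groups overlapped one another, and CD25-CD49f- cells lay below all of them. The difference was 2.15 ± 0.28 between the CD25-CD49f+ and CD25-CD49f- gates (4.43-fold, limma adjusted p = 2.17e-06) and 2.58 ± 0.30 between the CD25+CD49f- and CD25-CD49f- gates (limma adjusted p = 4.48e-07). The SD over the 7 CD25-CD49f- arrays was 0.93, and it was 0.38 in CD25+CD49f+, 0.27 in CD25+CD49f- and 0.26 in CD25-CD49f+ cells.

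Within the CD25-CD49f- gate, replicates 4 and 6 carried the high Dusp1 levels, 10.46 and 10.76, and the other 5 arrays read 8.40 to 9.65. Fos, an AP-1 subunit and immediate early gene, read 11.54 and 11.55 on those arrays, against 8.47 to 10.74 on the other 5. Jun, its partner, read 11.12 and 10.81, against 8.24 to 9.97. Hspa1a, an inducible heat shock protein, read 10.60 and 10.52, against 6.44 to 8.76. All of these were therefore highest on the same arrays. The part of the handling of the cells in the Dusp1 differences was not tested. A list of 10 measured heat shock genes also held Atf3, a transcription factor gene. Of the 10, 3 were higher and none lower in the CD25-CD49f+ gate than in the CD25-CD49f- gate, where Dusp1 was called too. They were Hspa1a (2.30), Hspa1b (1.5) and Atf3 (0.64), beside 8.01% of all genes higher and 5.42% lower. For CD25 among CD49f- cells 3 were again higher and none lower, beside 9.34% and 4.68% of all genes. They were Atf3 (0.64), Hspd1 (0.54) and Hspe1 (0.54). Atf3 read 5.39 to 5.74 in CD25-CD49f-, 5.78 to 6.62 in CD25-CD49f+ and 5.74 to 6.51 in CD25+CD49f- cells. These levels lay wholly or mostly in the range of absent transcripts. Hspa1a averaged 10.95 ± 0.64 in CD25-CD49f+ cells, against 8.65 ± 1.48 in the CD25-CD49f- gate. The mean log2 level over the 10 genes ran from 10.43 to 10.63 in CD25+CD49f+ cells, 10.43 to 10.89 in CD25+CD49f- cells, 10.25 to 10.85 in CD25-CD49f+ cells and 9.33 to 10.70 in CD25-CD49f- cells.

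**Figure D2:**
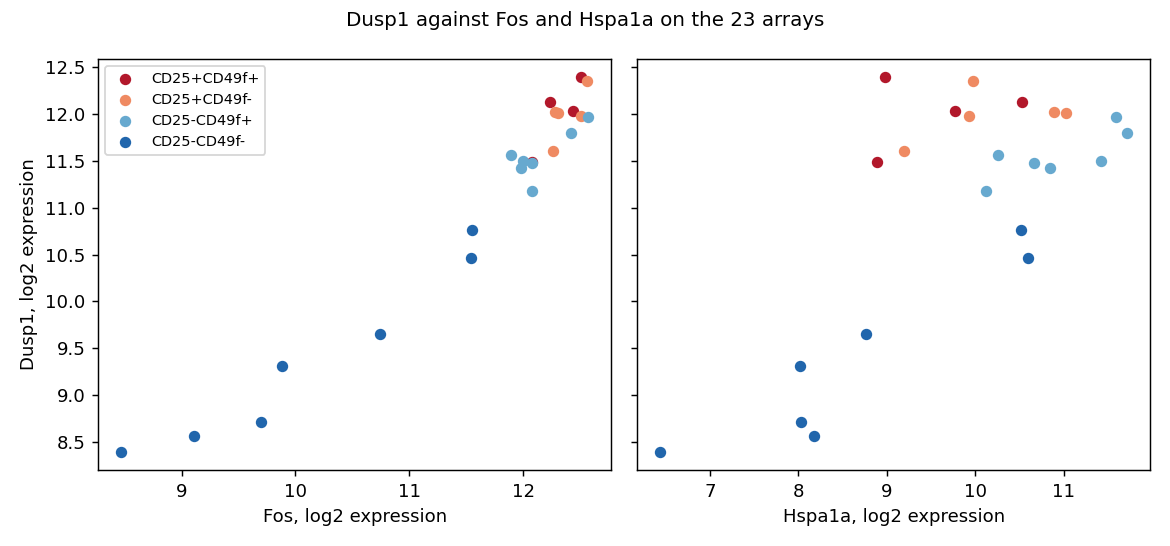
Dusp1 (vertical axis) against Fos (left) and Hspa1a (right), all in log2 expression, with 1 point per array coloured by gate. The CD25-CD49f- arrays spread from 8.40 to 10.76 in Dusp1 together with Fos (8.47 to 11.55) and Hspa1a (6.44 to 10.60), while the other gates lie above 11.1 in Dusp1 over the Hspa1a range of 8.89 to 11.72.

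Dusp2, a nuclear phosphatase first found in activated T cells, and Dusp5, a nuclear phosphatase selective for ERK, were also lower in the CD25-CD49f- gate than in every other gate, by less than Dusp1. Dusp2 read 10.67, 10.09, 10.47 and 10.41 in the CD25+CD49f+ gate, 10.57, 10.08, 10.32, 10.16 and 9.99 in the CD25+CD49f- gate, 9.89 to 10.42 (median 10.12) in CD25-CD49f+ cells and 8.88 to 9.72 (median 9.36) in CD25-CD49f- cells. Dusp5 read 8.66, 8.22, 8.97 and 8.67 in the CD25+CD49f+ gate, 9.19, 8.55, 9.01, 8.71 and 8.66 in the CD25+CD49f- gate, 8.08 to 8.69 (median 8.42) in CD25-CD49f+ cells and 7.21 to 7.76 (median 7.48) in CD25-CD49f- cells. For both genes the CD25-CD49f- arrays overlapped no other gate, and the other 3 gates overlapped one another. Against CD25-CD49f- cells, Dusp2 was higher by 0.74 ± 0.12 in CD25-CD49f+ cells (limma adjusted p = 4.81e-05) and by 0.82 ± 0.13 in CD25+CD49f- cells (limma adjusted p = 3.57e-05). Dusp5 was higher by 1.00 ± 0.12 (2.01-fold, limma adjusted p = 6.74e-07) and 1.35 ± 0.13 (2.56-fold, limma adjusted p = 1.62e-08) in the same comparisons. Among the other 3 gates neither gene passed a test, the nearest being Dusp5 between the CD25+CD49f- and CD25-CD49f+ gates (0.35, limma adjusted p = 0.113).

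Dusp10, a phosphatase of JNK and p38, was the only one of the 8 called lower in CD25+ cells. Its log2 levels were 8.38, 8.04, 8.62 and 8.15 in the CD25+CD49f+ gate, 9.01, 8.66, 8.88, 8.31 and 8.68 in the CD25+CD49f- gate, 8.77 to 9.40 (median 9.10) in CD25-CD49f+ cells and 8.94 to 9.31 (median 9.22) in CD25-CD49f- cells. CD25+CD49f+ arrays lay below both CD25- gates without overlap, while CD25+CD49f- arrays overlapped all groups. Dusp10 fell by 0.75 ± 0.13 in CD25+CD49f+ cells relative to CD25-CD49f+ cells (1.68-fold lower, limma adjusted p = 0.000287). In CD25+CD49f- relative to CD25-CD49f- cells the difference was -0.44 ± 0.12 (limma adjusted p = 0.0118), and without CD25+CD49f- replicate 4 it was -0.34 and did not pass (limma adjusted p = 0.0598). Among arrays without Y-linked transcripts these differences were -0.86 (limma adjusted p = 0.0117) and -0.34 (limma adjusted p = 0.356). On Y-linked arrays without Xist they were -0.63 (limma adjusted p = 0.291) and -0.51 (limma adjusted p = 0.242). Against the CD25-CD49f- gate, Dusp10 in CD25+CD49f+ cells stood at -0.85 ± 0.13 (limma adjusted p = 2.15e-05), and at -0.72 on Y-linked arrays without Xist (limma adjusted p = 0.0711). The neighbours CD25-CD49f+ and CD25-CD49f- were not distinguished (-0.10, 95% interval -0.33 to 0.13).

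Dusp6, a cytoplasmic phosphatase selective for ERK and a common readout of ERK activity, was called in no comparison. It read 8.98, 8.71, 8.79 and 8.95 in the CD25+CD49f+ gate, 9.15, 8.41, 8.54, 8.93 and 8.14 in the CD25+CD49f- gate, 8.79 to 9.52 (median 9.28) in CD25-CD49f+ cells and 7.62 to 9.11 (median 9.0) in CD25-CD49f- cells. All 4 groups overlapped, with the highest mean in CD25-CD49f+ cells. Its largest difference, CD25+CD49f- minus CD25-CD49f+ cells, was -0.63 ± 0.21 (limma adjusted p = 0.0563). Without the 4 arrays that stood apart this difference passed (-0.59, limma adjusted p = 0.000363), as did CD25+CD49f+ minus CD25-CD49f+ cells (-0.49, limma adjusted p = 0.00288) and CD25-CD49f+ minus CD25-CD49f- cells (0.31, limma adjusted p = 0.0341). Single arrays were enough to move these calls. The difference of CD25+CD49f- minus CD25-CD49f+ cells passed without CD25+CD49f- replicate 1 (-0.76, limma adjusted p = 0.0251), CD25-CD49f+ replicate 1 (-0.71, limma adjusted p = 0.028), CD25-CD49f- replicate 1 (-0.63, limma adjusted p = 0.0051) or CD25-CD49f- replicate 7 (-0.63, limma adjusted p = 0.0443). CD25-CD49f+ minus CD25-CD49f- cells passed without CD25-CD49f+ replicate 1 (0.59, limma adjusted p = 0.0374). The lowest arrays were CD25-CD49f- replicate 1 (7.62) and CD25+CD49f- replicate 5 (8.14), whose Actb 3' probe set exceeded the 5' probe set by 2.70 and 4.83, against 1.22 to 2.09 on the other 21 arrays, and the part of RNA quality in the Dusp6 values was tested only by taking that difference as a covariate, with which the gene was again called in none of the 7 comparisons.

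Spry2 and the fainter Dusp10 probe set lay in the range of absent transcripts throughout. The brighter Spry2 probe set read 5.51 to 5.87 in CD25+CD49f+ cells, 5.31 to 5.73 in CD25+CD49f- cells, 5.16 to 5.67 in CD25-CD49f+ cells and 5.17 to 5.79 in CD25-CD49f- cells, with no call. The dimmer one read 3.78 to 4.44 in CD25+CD49f+ cells, 4.84 to 5.43 in CD25+CD49f- cells, 4.17 to 4.71 in CD25-CD49f+ cells and 3.83 to 4.46 in CD25-CD49f- cells. In the fit over all 45101 probe sets the dimmer Spry2 probe set was called in 4 comparisons of gates and in the interaction. CD49f went with a lower level among CD25+ cells (-0.83 ± 0.15, limma adjusted p = 0.00171) and a higher level among CD25- cells (0.41 ± 0.12, limma adjusted p = 0.0244), with an interaction of -1.25 ± 0.19 (limma adjusted p = 0.000134). It was also higher in CD25+CD49f- cells, by 0.55 ± 0.13 over the CD25-CD49f+ gate (limma adjusted p = 0.00913) and by 0.96 ± 0.13 over the CD25-CD49f- gate (limma adjusted p = 7.31e-06). All of these levels lay in the range of absent transcripts. The Spry2 probe sets therefore disagreed, and no direction is given for the gene. The fainter Dusp10 probe set read 4.02 to 5.06 on all arrays and had no call, so the Dusp10 result rests on 1 probe set.

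**Figure D3:**
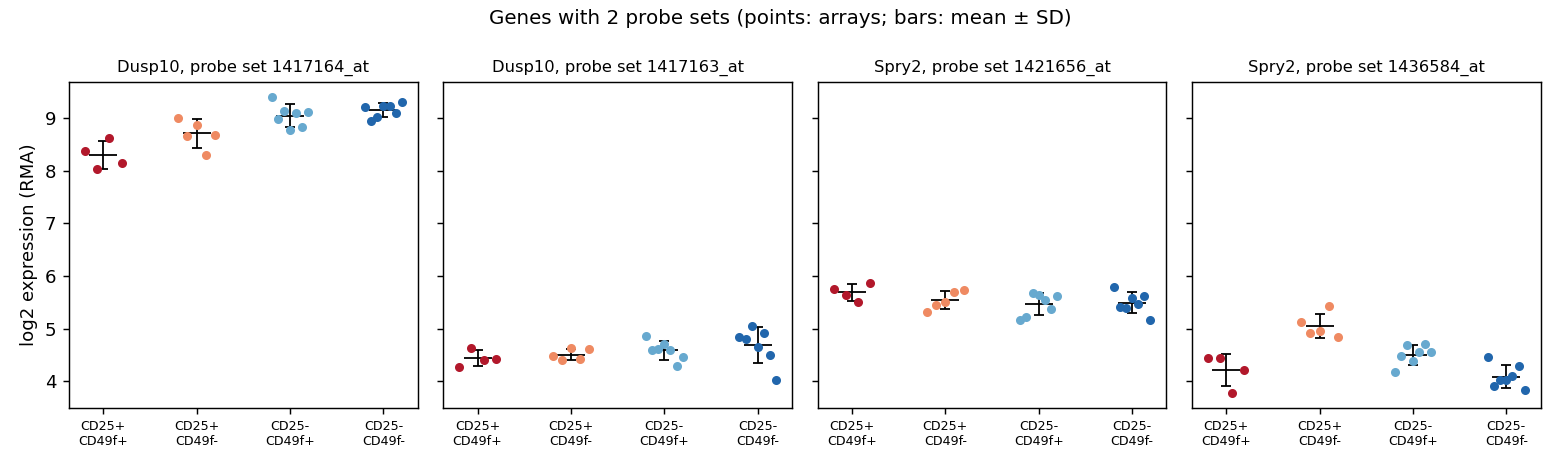
Log2 expression (RMA) of both probe sets of Dusp10 (left pair) and of Spry2 (right pair) in the 4 gates on a shared scale. Points are arrays and bars the mean ± SD. One Dusp10 probe set reads 8.04 to 9.40, and the other probe sets shown stay under 6.

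Counted over comparisons, CD49f in the CD25- gates went with higher levels of 5 of the 8 genes (Dusp1, Dusp2, Dusp4, Dusp5 and Spry1) in CD25-CD49f+ cells and lower levels of none. Of all genes 13.4% were called there, 8.01% higher and 5.42% lower. The same 5 did not overlap between those groups, as was so for 5.78% of all genes. In the CD25+ gates CD49f separated 1 of the 8, Spry1, which was higher and did not overlap. Of all genes 1.82% were called there, 0.352% higher and 1.47% lower, and 4.67% did not overlap. For CD25 in the CD49f- gates 6 were called, the same 5 higher and Dusp10 lower in CD25+CD49f- cells. Of all genes 14.0% were called, 9.34% higher and 4.68% lower, and 5 of the 8 beside 8.10% of all genes did not overlap. For CD25 in the CD49f+ gates 3 were called, Dusp4 and Spry1 higher and Dusp10 lower in CD25+CD49f+ cells, and all 3 did not overlap. Of all genes 5.72% were called, 2.81% higher and 2.91% lower, and 8.22% did not overlap. With both markers against neither, 6 were called and did not overlap, 5 higher and Dusp10 lower. Of all genes 13.2% were called, 7.63% higher and 5.53% lower, and 10.7% did not overlap. In the single positive gates, CD25+CD49f- against CD25-CD49f+, 1 was called, Dusp4, which was higher and did not overlap. Of all genes 8.86% were called, 5.23% higher and 3.63% lower, and 7.31% did not overlap. These comparisons share groups, so their counts are not independent. In addition, the 8 genes and the gene lists used here were chosen with earlier results of these data known. A count above the share of all genes is therefore a description and not a test. The median log2 difference of the 8 genes was 0.87 for CD49f among CD25- cells and 0.13 among CD25+ cells, beside -0.02 and 0.01 over all genes. Brighter genes were called more often there. For CD49f among CD25- cells, 2036 were called with only the genes above the median level fitted, against 2443 with all genes. Of the 8, all but Spry2 lay above the median level.

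**Figure D4:**
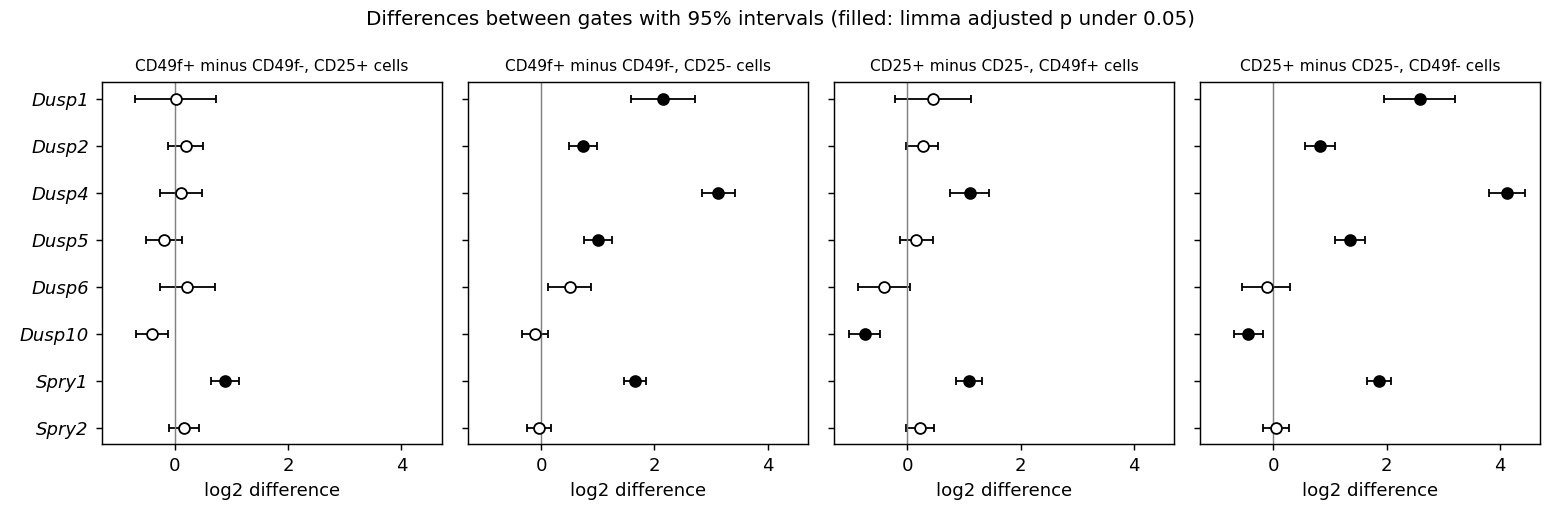
Log2 differences with 95% intervals (horizontal axis) of the 8 genes for CD49f+ minus CD49f- in CD25+ and in CD25- cells and for CD25+ minus CD25- in CD49f+ and in CD49f- cells. Filled points passed a limma adjusted p of 0.05 over all genes. Dusp4 reaches 4.12 and Spry1 is the only filled point for CD49f among CD25+ cells.

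Whether CD49f went with a different change in CD25+ than in CD25- cells was tested as an interaction. It was called for 4 of the 8 genes, all negative, where 5.31% of all genes were called, 4.33% negative and 0.984% positive. For each of the 4 the CD49f difference was smaller in CD25+ than in CD25- cells. Dusp4 differed by 0.11 in CD25+ cells and 3.13 in CD25- cells, an interaction of -3.02 ± 0.23 (limma adjusted p = 9.15e-10). Dusp1 differed by 0.02 in CD25+ cells and 2.15 in CD25- cells (interaction -2.13 ± 0.44, limma adjusted p = 0.00267), and Dusp5 by -0.19 in CD25+ cells and 1.00 in CD25- cells (interaction -1.20 ± 0.19, limma adjusted p = 0.000144). Spry1 rose in both, by 0.89 in CD25+ and 1.66 in CD25- cells (interaction -0.78 ± 0.15, limma adjusted p = 0.0016). Among arrays without Y-linked transcripts the interactions of Dusp4, Dusp1, Dusp5 and Spry1 were -3.27, -2.23, -1.37 and -1.02, with limma adjusted p of 0.000151, 0.0961, 0.0153 and 0.0201. Among Y-linked arrays without Xist they were -2.87, -2.01, -1.13 and -0.72, with limma adjusted p of 0.000153, 0.295, 0.0766 and 0.13.

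The kinases and their activators were set beside the share of all genes called. Of 15 genes of the Ras to ERK cascade 10 were analysed here. Of these, Ksr1, a scaffold of the cascade, was higher and Rasgrp1, which activates Ras after T cell receptor engagement, was lower in the CD25-CD49f+ gate than in the CD25-CD49f- gate (0.71 ± 0.07 and -0.54 ± 0.07, limma adjusted p = 6.97e-08 and 5.9e-06). The other 8 were uncalled there, so 2 of 10 were called beside 13.4% of all genes, and the median was -0.01. That share was higher among genes above the median level. In CD25+CD49f- relative to CD25-CD49f- cells the same pair was called, with Ksr1 at 0.61 and Rasgrp1 at -0.36, beside 14.0% of all genes. No member of this list was called for CD49f among CD25+ cells or for CD25 among CD49f+ cells. Of 9 genes that brake Ras or diacylglycerol signals, none was called for CD49f in either CD25 gate. For CD25 among CD49f- cells 3 were lower and none higher, beside 4.68% and 9.34% of all genes. They were the Ras GTPase-activating genes Rasa3 (-0.69) and Rasal3 (-0.67) and the diacylglycerol kinase gene Dgka (-0.70). Rasa3 alone was called for CD25 among CD49f+ cells, and was lower, beside 2.91% of all genes lower. With both markers against neither, Rasa1 was higher and Rasa3 and Rasal3 were lower, beside 7.63% and 5.53% of all genes. In CD25+CD49f- relative to CD25-CD49f+ cells Cblb was higher and Rasa3 lower, beside 5.23% and 3.63% of all genes.

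Relatives of the 8 genes were counted in the same way. A list of 14 further dual specificity phosphatases held both MAP kinase phosphatases and atypical members of the family. Of these, 1 was higher (Dusp14, 0.41) and 2 were lower (Dusp16, -0.48, and Dusp28, -0.26) in the CD25-CD49f+ gate than in the CD25-CD49f- gate. The other 11 were uncalled, and the median was -0.11, where 13.4% of all genes were called. All 3 called genes lay in the range of absent transcripts. Dusp14, known as a negative regulator of T cell receptor signalling, read 4.04 to 4.99 on all arrays, Dusp16 read 4.62 to 5.96 and Dusp28 read 5.70 to 6.44. For CD25 among CD49f- cells, where 14.0% of all genes were called, Dusp14 was higher (0.50) and Dusp28 (-0.33) and Dusp7 (-0.69) were lower. None was called for CD49f among CD25+ or for CD25 among CD49f+ cells. Among 5 other Sprouty and Spred genes was Spred1, also an inhibitor of Ras to ERK signalling. It was higher in the CD25+CD49f+ gate than in the CD25-CD49f+ gate (0.35), beside 2.81% of all genes higher. It was also higher in the CD25+CD49f- gate than in the CD25-CD49f+ gate, beside 5.23% of all genes. Its level lay under the value that absent transcripts reached. Spred2 was lower for CD25 among CD49f- cells (-0.29), beside 4.68% of all genes lower.

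Many genes induced early through these kinases were called in the comparisons that called Dusp1, Dusp2 and Dusp5. Of 19 such genes, 14 were higher and 1 lower in the CD25-CD49f+ gate than in the CD25-CD49f- gate (median 0.79), beside 8.01% and 5.42% of all genes. Phlda1 (1.94), Nr4a1 (1.40), Fosb (2.14) and Il2 (1.22) had the smallest p-values. Il2 read 5.98 to 6.81 in CD25-CD49f+ and 4.36 to 5.50 in CD25-CD49f- cells and Fosb 4.47 to 6.65 in CD25-CD49f- cells, so these levels lay wholly or mostly in the range of absent transcripts. Etv5 and Ier3, also among the 14, read 4.05 to 6.43 and 4.61 to 6.21 over all gates, in the same range. For CD25 among CD49f- cells 10 were higher and 1 lower (median 0.71), beside 9.34% and 4.68% of all genes. Phlda1 (2.31) led, with Plaur lower (-1.12), then Nr4a1 (1.66) and Fosb (2.54). Among CD25+ cells CD49f left 17 uncalled and 2 lower, Fosl2 (-0.70) and Il2 (-0.76), beside 1.47% of all genes lower and 0.352% higher. Both genes read no higher than absent transcripts in either gate, at 4.86 to 5.21 in CD25+CD49f+ and 5.50 to 5.94 in CD25+CD49f- cells for Fosl2, and at 4.58 to 5.08 in CD25+CD49f+ and 5.27 to 5.67 in CD25+CD49f- cells for Il2. For CD25 among CD49f+ cells 2 were higher and 4 lower, beside 2.81% and 2.91% of all genes. Il2, the main T cell growth factor, was at -1.61 and Ier3 at -1.13. Ier3 read 4.61 to 4.93 in CD25+CD49f+ and 5.55 to 6.21 in CD25-CD49f+ cells and Il2 4.58 to 5.08 in CD25+CD49f+ cells, all in the range of absent transcripts. The interaction was called for 11 of the 19, 1 positive and 10 negative, beside 0.984% and 4.33% of all genes. Of 18 genes of the JNK and p38 pathway 17 were analysed here. For CD49f among CD25- cells 5 were higher and none lower, beside 8.01% and 5.42% of all genes. Gadd45b (1.54 ± 0.13), an early gene that acts on the kinases upstream of p38 and JNK, led. Map2k3 (0.53) and Gadd45g (0.81, with both gates under 6.50) came next. For CD25 among CD49f- cells 7 were higher and 1, Mapk14, was lower, with Gadd45b at 2.0 and Gadd45g at 1.79. So 8 of 17 were called beside 14.0% of all genes. For CD25 among CD49f+ cells Gadd45g was higher and Map2k3 and Map2k6 were lower, beside 2.81% and 2.91% of all genes. The interaction was called for 3 of the 17, Map2k3, Gadd45b and Gadd45g, all negative, beside 4.33% of all genes.

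The genes most like each member over the 23 arrays, by Pearson correlation of log2 levels, are given as a description, since the arrays of a gate share that gate. Dusp4 was most like Foxp3, Ctla4 and Ikzf2 (r = 0.983, 0.983 and 0.981), the first and last of which code Treg transcription factors. Dusp1 was most like Fos, Fosb and Jun (r = 0.973, 0.970 and 0.969), all subunits of AP-1. Dusp5 was most like Csrnp1, Gadd45b and Cxcl10 (r = 0.975, 0.967 and 0.965), and Dusp2 like Tnfaip3, Ctla4 and Phlda1 (r = 0.944, 0.910 and 0.909). Spry1 was most like Tiam1, Lclat1 and Cst7 (r = 0.980, 0.973 and 0.968). Dusp10 was most like Klf2, a transcription factor of quiescent T cells (r = 0.909), then Rhbdf2 and Ifitm10 (r = 0.839 and 0.836). Dusp6 was most like Wipf1, Tmsb4x and Med30 (r = 0.903, 0.872 and 0.872). For Spry2 the nearest were Asb4, Gpr176 and 1700013D24Rik (r = 0.782, 0.762 and 0.755), with Spry2 itself at background. Among the members, Dusp4 and Dusp5 had r = 0.94 over all arrays and r = 0.45 after each gate's mean was removed, Dusp4 and Spry1 r = 0.94 and 0.06, and Dusp1 and Dusp2 r = 0.88 and 0.43.

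Other features of the cells differed between the gates as well. Foxp3 averaged 9.85 ± 0.20 in CD25+CD49f+, 9.79 ± 0.08 in CD25+CD49f-, 8.25 ± 0.22 in CD25-CD49f+ and 4.74 ± 0.32 in CD25-CD49f- cells. All 5 Treg markers, Il2ra among them, were called higher for CD49f among CD25- cells (median 2.63), beside 8.01% of all genes, and none among CD25+ cells. The interaction was called for 4 of the 5, all negative, beside 4.33% of all genes. The part of Treg cells in the levels of the 8 genes was not tested. The mean log2 level of 7 measured cell cycle genes was 7.98 to 8.64 in CD25+CD49f+ cells, 6.99 to 7.66 in CD25+CD49f- cells, 9.12 to 9.66 in CD25-CD49f+ cells and 6.25 to 7.04 in CD25-CD49f- cells. For CD49f among CD25+ cells, the comparison that called Spry1, 6 of the 7 were called higher and none lower, beside 0.352% of all genes higher. For CD49f among CD25- cells all 7 were higher, beside 8.01% of all genes. Their part in the levels of the 8 genes was not tested. The 8 measured myeloid and dendritic cell markers averaged 5.90 to 6.70 in CD25+CD49f+, 6.16 to 6.71 in CD25+CD49f- and 6.38 to 6.95 in CD25-CD49f+ cells, against 6.27 to 8.11 in CD25-CD49f- cells. Of these, Itgax, Cd68, Siglech and Flt3 were lower in the CD25-CD49f+ gate than in the CD25-CD49f- gate, beside 5.42% of all genes. Itgam, Csf1r, Lyz2 and Fcer1g were not called there. In CD25+CD49f- relative to CD25-CD49f- cells the same 4 were lower and Fcer1g was higher, beside 4.68% and 9.34% of all genes. The part of such cells in the levels of the 8 genes was not tested. The 5 measured B cell markers overlapped, at 5.80 to 6.70 in CD25+CD49f+, 5.42 to 6.56 in CD25+CD49f-, 5.76 to 6.61 in CD25-CD49f+ and 5.44 to 6.74 in CD25-CD49f- cells. The 3 measured neutrophil markers averaged 7.31 to 8.03 in CD25+CD49f+ and 7.42 to 8.23 in CD25+CD49f- cells. They averaged 8.04 to 8.84 in CD25-CD49f+ and 7.47 to 8.48 in CD25-CD49f- cells. Relative to CD25-CD49f+ cells, S100a9 was lower in CD25+CD49f+ cells, beside 2.91% of all genes. S100a9 and Mmp8 were lower in CD25+CD49f- cells, beside 3.63%. S100a8 was called in neither. The part of neutrophils was not tested.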

How the data were processed

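Gene expression was measured on Affymetrix arrays in 4 groups of sorted mouse CD4+ T cells. The deposited table holds log2 values of 45101 probe sets on 23 arrays, which the authors made with RMA, per the submitters' processing notes, with no version named. Depth does not apply, and the number of arrays limits precision. Probe sets were named from the platform annotation: 34958 named 1 gene, 932 several and 9211 none. Symbols were updated by Entrez identifier through RefSeq (GRCm38.p6) for 34754 of the 34958. The probe set with the highest mean stood for a gene, which left 18194 genes. One limma 3.58.1 model (R 4.3.3) over the 4 groups gave every contrast, and Benjamini-Hochberg adjustment ran over all genes, with a call at 0.05. The fit was tested on simulated data. Figures used Python 3.11.15 and matplotlib 3.10.9.

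The 8 genes and the gene lists were chosen with earlier results of these data known. Named were the 8 genes, up to 4 called genes per list and comparison with the smallest p, the 3 most similar genes by correlation, and Il2ra, Foxp3 and Itga6. Genes named beyond this rule, such as Hspa1a and Itgax, were chosen after their values were seen. Arrays were counted as Y-linked above a log2 level of 6 for Eif2s3y or Kdm5d and as Xist positive above 8, and as standing apart at a mean correlation with their own group under 0.983. Other settings tried were array weights, a replicate block, robust trended eBayes, omission of each array in turn, quantile and cyclic loess scaling, the mean over probe sets, genes above the median level, fits on the compared groups only, arrays with or without Y-linked transcripts, and an Actb 3' to 5' covariate. The fit without the 4 arrays that stood apart was chosen after seeing the data.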

Additional observations from a re-analysis of the deposited data

Results flagged for a closer look

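On 4 of the 8 genes the CD49f difference changed between CD25+ and CD25- cells by the interaction test, at -3.02 for Dusp4, -2.13 for Dusp1, -1.20 for Dusp5 and -0.78 for Spry1 (limma adjusted p = 9.15e-10, 0.00267, 0.000144 and 0.0016). Dusp4 in CD25-CD49f- cells lay in the range of absent transcripts, which limits what its size means. In 2 of the 32 sets of 1 gene in 1 gate a single array lay far from the others by Dixon's criterion, about as many as chance gives at 1 in 20. Dusp6 read 7.62 in CD25-CD49f- replicate 1, with the others at 8.52 to 9.11, and that array is one of those that stood apart. Spry1 read 6.62 in CD25-CD49f- replicate 3, with the others at 6.93 to 7.14.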

How the results depend on the processing

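The number of the 8 genes called was recomputed under each alternative. Leaving out 1 array gave 1 called for CD49f among CD25+ cells, 5 to 6 among CD25- cells, 3 for CD25 among CD49f+ cells, 5 to 6 among CD49f- cells, 6 between the CD25+CD49f+ and CD25-CD49f- gates, 4 for the interaction, and 1 to 3 between the CD25+CD49f- and CD25-CD49f+ gates. In that last comparison 1 was called as reported and 2 with the replicate block, which added Dusp10. Quantile scaling, cyclic loess, the brighter genes only and the compared groups alone also gave 2, adding Dusp6, array weights gave 4, and 3 were called without the 4 arrays that stood apart. Replicate numbers were not taken as pairs, because no 2 gates had r over 0.1 between deviations in every pair of equal number (14 of 29 pairs in all, range -0.514 to 0.413). Some gates came near, with r above 0 in 6 of 7 pairs between CD25-CD49f+ and CD25-CD49f-, and over 0.1 in 3 of 4 between CD25+CD49f+ and CD25+CD49f-. Y-linked status matched in 5 of 7 of the former pairs and 4 of 4 of the latter, and differed in 13 of the 29. A pair that differed in this is unlikely to come from 1 mouse. For the other pairs a shared source cannot be told from these numbers. The replicate block also called the Dusp2 interaction (-0.57, limma adjusted p = 0.0337) and changed no other call of the 8 genes. For CD25 among CD49f+ cells 5 instead of 3 were called with array weights and 5 without the 4 arrays, both adding Dusp2 and Dusp6. For CD49f among CD25+ cells 2 instead of 1 were called with array weights and 0 on arrays without Y-linked transcripts. The interaction was called for 1 instead of 4 on Y-linked arrays without Xist. These subsets hold fewer arrays. The Spry2 interaction reversed to -0.53 (limma adjusted p = 0.0371) with the mean over probe sets, against 0.18 as reported, since its dimmer probe set differs. Over all genes, the counts called moved by over 1.5 times with array weights, without the 4 arrays, in the subsets by Y-linked transcripts and, once, for the brighter genes. For CD49f among CD25+ cells 762 were called with array weights, 588 without the 4 arrays, 203 of the brighter genes, 119 on arrays without Y-linked transcripts and 92 on Y-linked arrays without Xist, against 332. In the same order of the settings that moved them, CD49f among CD25- cells gave 3742 (weights), 1340 and 1080 (subsets), against 2443, and CD25 among CD49f+ cells 3083, 2361, 493 and 264, against 1040. CD25 among CD49f- cells gave 1284 and 1004 on the subsets, against 2551. Both markers against neither gave 4071, 3957, 1347 and 1200, against 2396, the single positive gates 2963, 2604, 695 and 425, against 1612, and the interaction 2273, 1710, 370 and 242, against 966.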
